A study of Mus musculus with 12 samples.

Results

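The core cardiac transcription factors are a small set of DNA-binding proteins that build the heart and keep cardiomyocyte genes on in the adult. The set described here was given by name: Gata4, Gata6, Nkx2-5, Tbx5, Tbx20, Hand2, Mef2a, Mef2c, Mef2d and Srf. All 10 were found by symbol among the 25171 loci of the count table. RNA from 12 mouse hearts was sequenced, with 3 hearts in each of 4 groups. Every mouse carried NOTCH2NLC-(GGC)98, a human gene fragment with 98 GGC repeats, inserted at Rosa26 behind a loxP-flanked stop that Cre recombinase removes. EIIa-tg mice (labelled E2a-transgenic) also carried EIIa-Cre, which acts in all tissues, while EIIa-ctl mice were littermates without it, and both were 30 days old. Myh6-ctl and Myh6-tg mice, both 90 days old, were labelled as the same cross to Myh6-creERT2, a Cre that is made in cardiomyocytes and works only with tamoxifen. From day 60 the Myh6-tg mice received 3 injections of tamoxifen at 75 mg per kg and the Myh6-ctl mice received corn oil. Tamoxifen itself and removal of the stop therefore cannot be told apart in this model, and the ages of the 2 models differ by design.

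GATA4 and GATA6 are zinc finger factors, NKX2-5 is a homeodomain factor, TBX5 and TBX20 are T-box factors and HAND2 is a basic helix-loop-helix factor. MEF2A, MEF2C and MEF2D share with SRF the MADS-box, a DNA-binding domain that reads AT-rich sites. These factors bind together at enhancers of sarcomere, ion channel and natriuretic peptide genes, and they bind at each other's genes. GATA4, HAND2, MEF2C and TBX5 given together can push fibroblasts toward a cardiomyocyte state, and SRF needs cofactors of the myocardin family to switch on contractile genes.

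The 3 MEF2 genes are of one family, so their coding starts are shown to make clear how reads could be told apart. The first 30 coding bases are from GENCODE M21 transcripts (Mef2a-208, Mef2c-202 and Mef2d-203, with proteins of 498, 484 and 514 residues), and capitals mark the 19 bases shared by all 3.
Mef2a: ATGGGGcGaAAgAAGATaCAaATcacacGc
Mef2c: ATGGGGaGaAAaAAGATtCAgATtacgaGg
Mef2d: ATGGGGaGgAAaAAGATtCAgATccagcGa
The longest identical run between the coding sequences of any pair of members was 28 bases, between Mef2c and Mef2d. Within the GATA pair it was 18 bases.

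The promoter table used here, from RefSeq (GRCm38.p6), held 9 promoters of 300 bases around annotated starts, for 7 of the 10 members. They were searched on both strands for the site letters of the families themselves. The letters were AGATAA for the zinc finger factors, CAAGTG for the homeodomain factor and AGGTGT for the T-box factors. The MEF2 box and the CArG box, which is the SRF site, were searched as well. The windows shown are the ones found, with the motif in capitals. Those of Hand2 (plus strand of chromosome 8) lie at chr8:57320801-57320830 and chr8:57320738-57320767, and both motifs there read on the opposite strand.
Hand2 GATA box: cccgttttaaTTATCTtatggttatgagtg
Hand2 NKX box: atctgttaaaCACTTGcattaacctatggc
Those of Mef2c (plus strand of chromosome 13) lie at chr13:83503790-83503819 and, in a second promoter, at chr13:83523430-83523459.
Mef2c NKX box: tgaaatgaagCAAGTGtgtgctatgtttcc
Mef2c T-box: aagtccagtaAGGTGTggagggaaggaggg
The MADS-box genes Mef2a (minus strand, chr7:67372841-67372870) and Srf (minus strand, chr17:46556225-46556254 and chr17:46556205-46556234) held the box of their own family, Srf in a neighbouring pair whose windows overlap.
Mef2a MEF2 box: ggcctgactcCTAAAAATAGccccggtgtg
Srf first CArG box: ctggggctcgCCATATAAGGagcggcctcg
Srf second CArG box: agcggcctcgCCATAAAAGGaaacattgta
Of 32851 promoters of this length, 11.2% held the GATA letters, 13.6% the NKX letters, 13.7% the T-box letters, 3.19% a MEF2 box and 1.63% a CArG box. A match describes the letters in the window and is not a measured binding site.

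Some labels need stating before the values. Esr1, the estrogen receptor gene part of which is built into tamoxifen-dependent Cre proteins, had 1031 to 2331 normalized CPM (counts scaled to the TMM-corrected library total) in Myh6-ctl hearts. It had 1.00 to 2.52 in hearts labelled Myh6-tg and 0.408 to 1.23 in both EIIa groups, although the labels give both Myh6 groups the same alleles. The Myh6 groups are therefore named as labelled, and every direction in that comparison rests on the labels. Whether the 2 groups differ in the Cre allele was not tested. Such a difference could not be told apart from tamoxifen or removal of the stop. Sqstm1, which encodes the p62 protein of the inclusions, was at 1782 to 2007 CPM in Myh6-tg against 446 to 941 in Myh6-ctl hearts, and at 785 to 1258 in EIIa-tg against 352 to 399 in EIIa-ctl hearts. Genotype labels of EIIa-tg replicates 2 and 3 read e3a and e4a, and their titles were used. The extraction text names brain, but Tnnt2, the cardiac troponin T, was at 2950 to 9675 CPM in all 12 hearts. Each group held 1 heart with Y-linked RNA, always replicate 1 (4224 to 7307 counts), while the other hearts had up to 2 counts. Totals were 38343106 to 50969834 counts per heart, and mt- genes took 15.5% to 18.6% of the counts in Myh6-tg against 28.5% to 38.3% in the other hearts.

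Across the 10 factors, Hand2 rose in EIIa-tg hearts and Mef2c fell in the hearts labelled Myh6-tg, and no other member passed the test in either model. In the EIIa model 1 of 10 members was called (edgeR, adjusted p under 0.05), where 17% of 14908 genes tested were called, 8.65% of the genes tested being higher. For the Myh6 model 1 of 10 was called, where 18.3% of 15298 genes were, 9.38% of the genes tested being lower. Members with no overlap between groups numbered 4 higher and 1 lower in the EIIa model, beside 20.3% and 20.8% of all genes. In the other model they numbered 3 higher and 1 lower, beside 20.6% and 19.6%. The median log2 fold change of the members was 0.18 in the EIIa model (all genes 0.02) and 0.32 in the Myh6 model (all genes 0.03), and 7 of 10 were above 0 in each. Neither count of called members exceeded the share of all genes. In these bulk hearts, fewer cells of a type and less RNA per cell cannot be told apart.

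**Figure D1:**
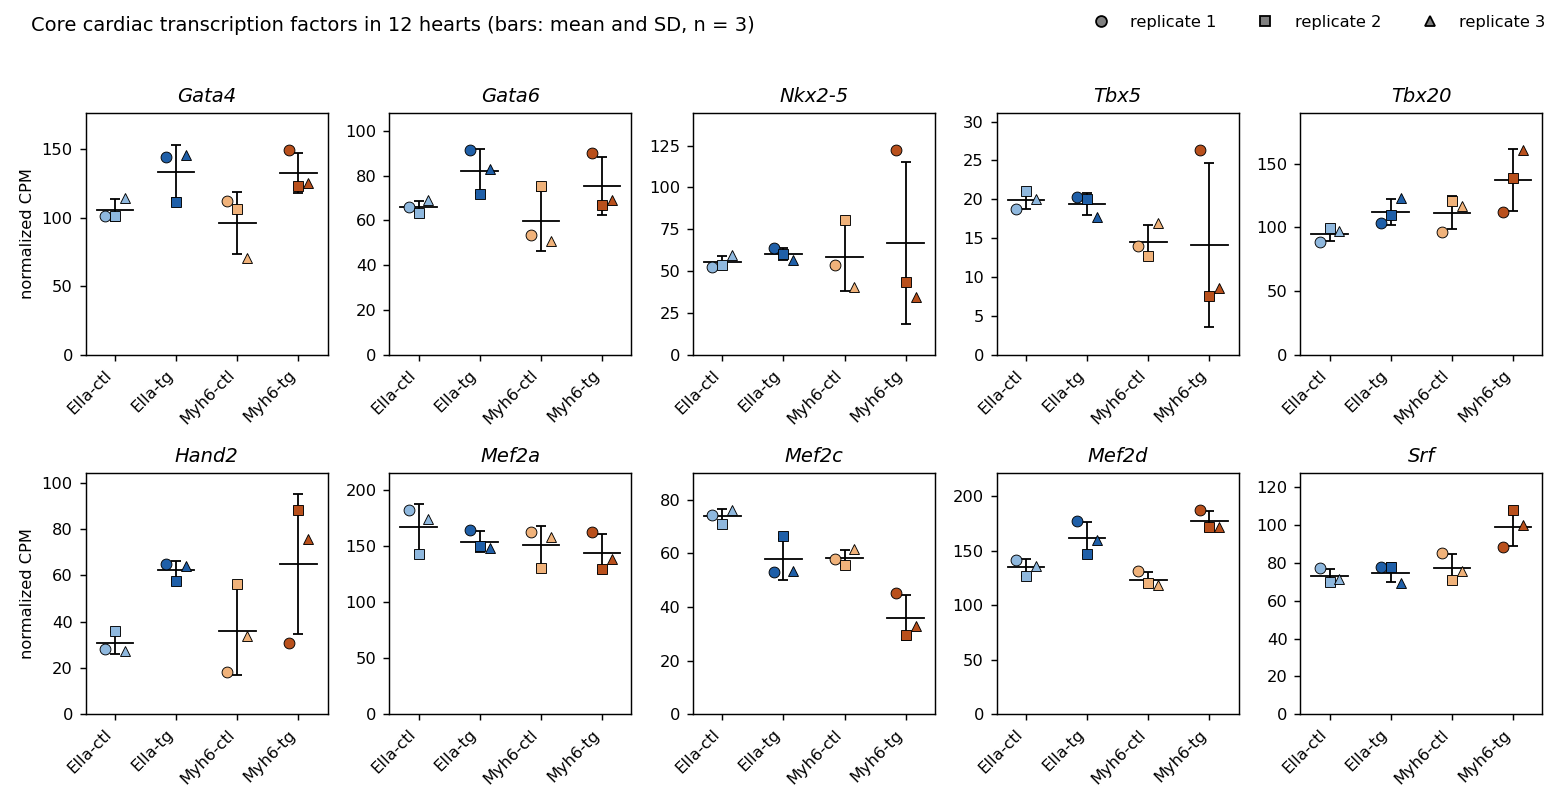
Normalized CPM (y axis, from 0) of each factor in each heart, by group (x axis), with the marker shape giving the replicate and bars the mean and SD of 3 hearts. Hand2 is higher in all EIIa-tg than in all EIIa-ctl hearts, Mef2c is lowest in the hearts labelled Myh6-tg, and Nkx2-5 and Tbx5 have 1 high Myh6-tg heart, replicate 1.

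**Figure D2:**
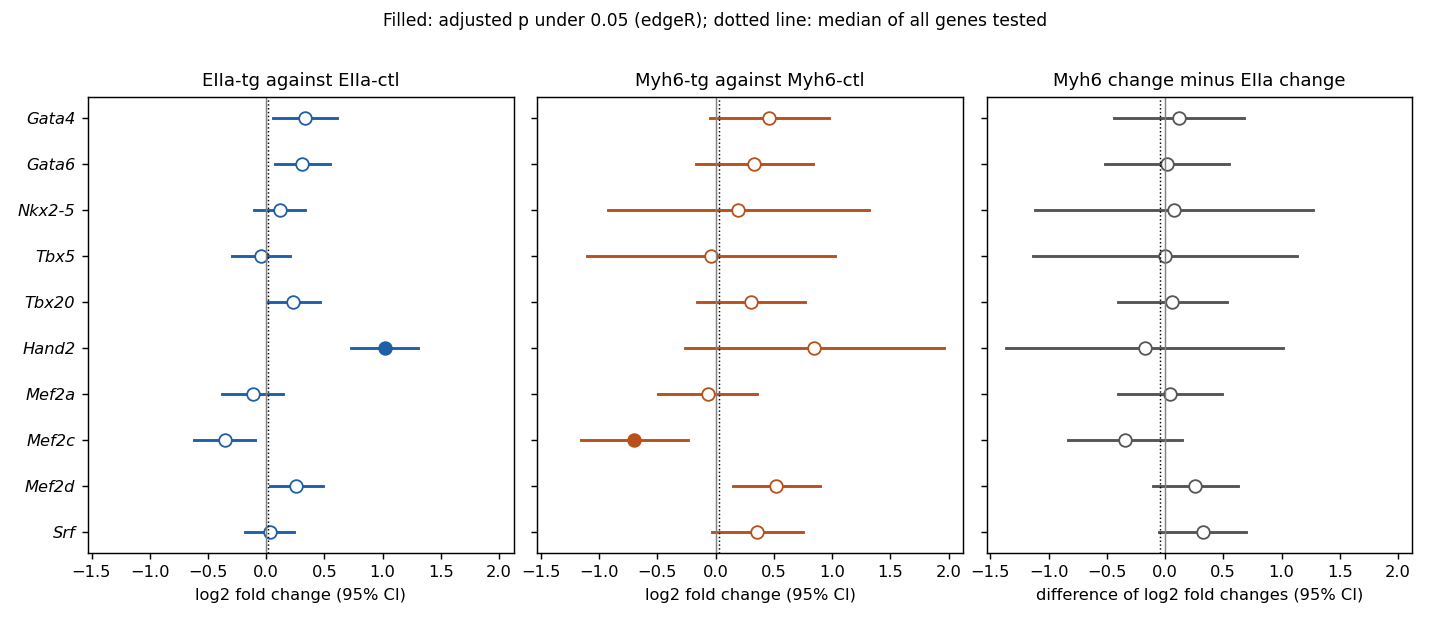
Log2 fold change of each factor (point) with its 95% confidence interval (line) in the EIIa model, the Myh6 model and the difference between them, with filled points for an adjusted p under 0.05 and the median of all genes dotted. Only Hand2 (1.02, EIIa) and Mef2c (-0.70, Myh6) are filled, and no point is filled in the difference.

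Hand2, a factor of the right ventricle and of cardiac neural crest derivatives in the embryo, had the largest change of the set. The gene lies at chr8:57320983-57324633 (GRCm38, GENCODE M21, plus strand). It stood at 28.4, 36.2 and 27.6 CPM in EIIa-ctl hearts and at 65.0, 57.6 and 64.2 in EIIa-tg hearts. The groups did not overlap, since the lowest EIIa-tg heart was above the highest control. The level rose 2.02-fold, a log2 fold change of 1.02 with a standard error of 0.13 and an adjusted p of 0.0135 (edgeR). That adjusted p was the smallest of the comparison, but other genes shared it. Among them Abra, Cd14 and Sqstm1 had smaller unadjusted p (9.72e-06, 2.61e-05 and 2.29e-05, against 3.004e-05 for Hand2). With the direction kept, the call was lost without EIIa-ctl replicate 1 (log2 0.96), EIIa-ctl replicate 3 (0.94) or EIIa-tg replicate 1 (0.99). In those fits 0, 1 and 0 of all genes were called. Fitting all 12 hearts together also lost it (1.02, with 1.43% of all genes called). It was lost as well without replicate 1 of all groups (0.93, adjusted p 0.189, 0 genes called). The replicate block (1.03, adjusted p 0.0631) and limma on log2(FPKM + 1) without a filter (1.15, adjusted p 0.0521) lost it too, each with 1 gene called. The call held in 13 of 20 alternatives.

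Hand2 varied more within the Myh6 groups. It was at 18.5, 56.3 and 33.7 CPM in Myh6-ctl and at 31.0, 88.4 and 75.6 in hearts labelled Myh6-tg. The groups overlapped, and replicate 1 was the lowest heart of each group. The log2 fold change was 0.85 with a standard error of 0.48 and an adjusted p of 0.255. Same-numbered hearts deviate together in this model, but no label pairs them, and the pairing was read from these same data. Hand2 was higher in the Myh6-tg heart in 3 of 3 such pairs. With the pair as a block the log2 fold change of 0.85 (standard error 0.18) had an adjusted p of 0.0198 (edgeR). The members called then went from 1 to 2, while 20.9% of all genes were called, against 18.3% without the block. Because the block was chosen from the data, that fit is no independent test of Hand2. An antisense gene, Hand2os1, overlaps Hand2 on the opposite strand over 3251 bases. The library kit is not stated to keep strand, so reads within bases shared by the pair could not be told apart by strand. The overlap was counted from gene start to gene end, introns included, and shared exons were not examined.

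Mef2c, the MEF2 gene needed for the looping heart and its right ventricle, was the 1 member that fell in the hearts labelled Myh6-tg. The gene lies at chr13:83504034-83667080 on the plus strand. It was at 58.0, 55.6 and 61.6 CPM in Myh6-ctl hearts and at 45.4, 29.4 and 33.1 in Myh6-tg hearts. The groups did not overlap, and replicate 1 was the highest Myh6-tg heart. The log2 fold change was -0.70 with a standard error of 0.20, a level 0.616 times that of the controls, and an adjusted p of 0.0462 (edgeR). Without Myh6-tg replicate 1 it was -0.90 (adjusted p 0.00705). Leaving out any one of the other 5 hearts kept the direction and lost the call. Log2 fold changes then lay between -0.74 and -0.57, with adjusted p of up to 0.168 (edgeR). In those fits 5.01% to 11% of all genes were called, against 18.3% as reported and 26.7% without Myh6-tg replicate 1. The call was also lost without a filter on low counts (-0.70, adjusted p 0.0538) and with limma on FPKM, at -0.39 with a pseudocount of 1 (adjusted p 0.284, or 0.379 without a filter) and -0.43 with 0.1 (0.287), where the median of all genes was higher. Relative to that median, Mef2c was at -0.73 with a pseudocount of 1. On FPKM the groups overlapped, at 7.59 to 14.6 in Myh6-ctl and 5.71 to 9.48 in Myh6-tg hearts.

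In the EIIa model Mef2c was at 74.4, 71.0 and 76.3 CPM in EIIa-ctl and at 53.2, 66.6 and 53.5 in EIIa-tg. Each transgenic value was below each control value, but the log2 fold change of -0.36 (standard error 0.11) did not pass the test, with an adjusted p of 0.0617. Without EIIa-tg replicate 2, the EIIa-tg heart nearest to the controls, it passed (-0.48, adjusted p 0.00674), where 26.6% of all genes were called. DESeq2 also called it (adjusted p 0.0378).

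The other 2 MEF2 genes passed the test in neither model. Mef2d, on chromosome 3 (chr3:88142372-88172086, plus strand), was at 141, 127 and 136 CPM in EIIa-ctl, 177, 147 and 159 in EIIa-tg, 131, 121 and 118 in Myh6-ctl and 187, 172 and 172 in Myh6-tg hearts. In both models all transgenic hearts were above all controls. The log2 fold change was 0.26 (standard error 0.10, adjusted p 0.106) in the EIIa and 0.52 (standard error 0.16, adjusted p 0.0601) in the Myh6 model, and neither passed. The Myh6 value did pass in 8 of 20 other settings, among them all 12 hearts in one fit (adjusted p 0.00621), where 31.7% of all genes were called.

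Mef2a (chr7:67231163-67372858, minus strand), a MEF2 gene active in adult heart, differed little between groups. It ranged over 143 to 182 CPM in EIIa-ctl, 148 to 164 in EIIa-tg, 131 to 163 in Myh6-ctl and 129 to 163 in Myh6-tg hearts. Groups overlapped in each model, and the log2 fold changes were -0.12 (95% interval -0.38 to 0.14) and -0.07 (-0.49 to 0.36). The sign turned in the fits on FPKM (fragments scaled to transcript length and library size), where the median of all genes shifted up as well. Lysmd4, on the opposite strand, overlaps Mef2a over 76168 bases, with at most 677 counts.

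SRF, which ties actin dynamics to contractile and immediate early genes, did not pass the test in either model. Srf (chr17:46548329-46556175, minus strand) was at 77.6, 70.2 and 71.6 CPM in EIIa-ctl and 77.7, 77.7 and 69.4 in EIIa-tg. The groups overlapped, and the log2 fold change was 0.03 with a 95% interval of -0.18 to 0.24. It was at 85.2, 71.1 and 75.6 in Myh6-ctl and 88.6, 108 and 100.3 in Myh6-tg hearts. The Myh6 groups did not overlap, though the lowest Myh6-tg heart was close to the highest control. The log2 fold change of 0.36 (standard error 0.17) had an adjusted p of 0.178. Srf passed in 4 of 20 other settings, among them all 12 hearts in one fit (adjusted p 0.0423), where 31.7% of all genes were called. Limma on FPKM also called it (adjusted p 0.0243 to 0.0407), where 16.9% to 32.7% of all genes were called. A noncoding gene on the opposite strand, Gm26904, overlaps Srf over 7847 bases, the whole gene. Strand could not tell apart reads within shared bases there either, and shared exons were not examined. Shorter overlaps on the opposite strand were at Gata6 (504 bases) and Mef2d (531 bases).

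GATA4 and GATA6 activate natriuretic peptide and contractile genes and are needed for heart tube formation. Gata4 (chr14:63198922-63271692, minus strand) was at 101, 101 and 115 CPM in EIIa-ctl, 144, 111 and 145 in EIIa-tg, 112, 106 and 70.3 in Myh6-ctl and 149, 123 and 126 in Myh6-tg hearts. EIIa-tg replicate 2 lay within the range of its controls, and in the Myh6 model the groups did not overlap. Log2 fold changes were 0.33 (standard error 0.12, adjusted p 0.0875) and 0.46 (standard error 0.22, adjusted p 0.183). Gata6, on chromosome 18, was at 65.8, 63.3 and 69.0 CPM in EIIa-ctl and 91.4, 71.9 and 82.9 in EIIa-tg hearts, with no overlap, a log2 fold change of 0.31 (standard error 0.10) and an adjusted p of 0.0719. For the Myh6 hearts Gata6 ranged over 50.95 to 75.3 in the controls and 66.8 to 90.3 in hearts labelled Myh6-tg, which overlapped (0.33, adjusted p 0.321). Neither GATA gene passed the test in either model as counted, while limma on log2(FPKM + 1) with a filter called both in both models, on a scale where the median of all genes was also higher.

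The T-box and homeodomain factors differed little in the EIIa model. Tbx20, which is needed for adult cardiomyocyte function (chr9:24718138-24774303, minus strand), was at 88.3, 99.6 and 97.4 CPM in EIIa-ctl and 104, 109.8 and 123 in EIIa-tg hearts. These did not overlap, but the log2 fold change of 0.23 (standard error 0.099) had an adjusted p of 0.133. Tbx20 in the Myh6 hearts ranged over 96.6 to 121 in the controls and 112 to 161 in Myh6-tg hearts (0.30, adjusted p 0.328). Nkx2-5, the homeodomain factor of the early heart field (chr17:26838664-26845009, minus strand), was at 52.6, 53.7 and 59.7 in EIIa-ctl and 63.8, 60.1 and 56.6 in EIIa-tg hearts. Tbx5, the gene of the limb and heart disorder Holt-Oram syndrome (chr5:119832668-119885219, plus strand), was at 18.7, 21.1 and 20.0 in EIIa-ctl and 20.3, 20.1 and 17.8 in EIIa-tg hearts. Both overlapped between groups, with log2 fold changes of 0.12 (95% interval -0.10 to 0.33) and -0.05 (-0.30 to 0.21).

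A single heart set the Myh6 values of Nkx2-5 and Tbx5. Nkx2-5 was at 53.8, 80.3 and 40.4 CPM in Myh6-ctl and at 122, 43.4 and 34.3 in hearts labelled Myh6-tg. Tbx5 was at 14.0, 12.7 and 17.0 in Myh6-ctl and at 26.3, 7.53 and 8.63 in Myh6-tg hearts. Myh6-tg replicate 1 was the highest of all 12 hearts for both genes. With all hearts the log2 fold changes were 0.19 (standard error 0.48) for Nkx2-5 and -0.04 (standard error 0.46) for Tbx5. Without that heart they were -0.59 (adjusted p 0.189) for Nkx2-5 and -0.85 (adjusted p 0.0246) for Tbx5, and the members called went from 1 to 3, Tbx5 and Mef2c lower and Mef2d higher, while 26.7% of all genes were called.

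**Figure D3:**
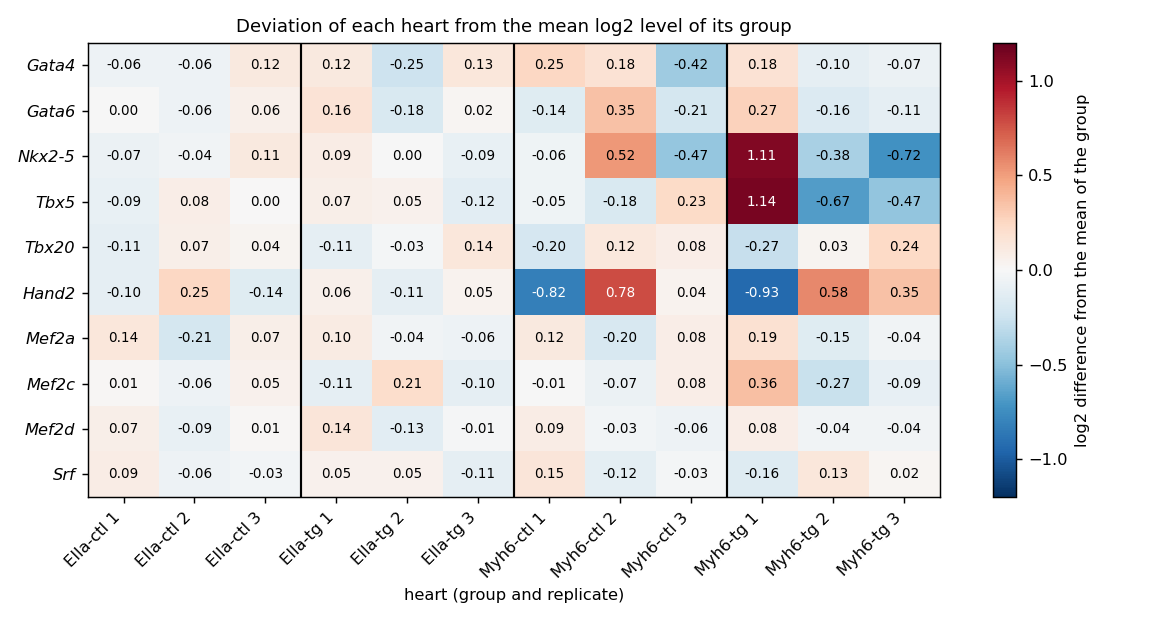
Log2 difference of each heart (columns, by group and replicate) from the mean of its own group for each factor (rows), with red above and blue below. Myh6-tg replicate 1 is 1.11 above its group for Nkx2-5, 1.14 above for Tbx5 and 0.93 below for Hand2.

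On the log2 scale Myh6-tg replicate 1 was above the mean of replicates 2 and 3 by 1.66 for Nkx2-5, 1.70 for Tbx5 and 0.54 for Mef2c, and its difference for Hand2 was -1.40. Hand2 differed alike in Myh6-ctl replicate 1 (-1.23). The same Myh6-tg heart had the most Tnnt2, at 9675 CPM against 3557 and 2950, and its summed level of 10 cardiomyocyte markers was 34935 CPM against 15009 and 11740. Its summed fibroblast markers were 2789 CPM against 6128 and 6536. Its summed leukocyte markers were 1623 CPM against 642 and 626. It was also the only Myh6-tg heart with Y-linked counts. With a term for the Y-linked counts, Hand2 was at a log2 fold change of 0.83 (adjusted p 0.0337), Mef2d at 0.52 (0.0405) and Mef2c at -0.72 (0.0270) in that comparison, where 23.4% of all genes were then called. The part of the marker levels in the members' values was not tested.

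Whether the models differed was tested with one fit over all 12 hearts, and no member was called. There, 3.92% of 15929 genes were called by edgeR, 0 members reached an unadjusted p under 0.05, and DESeq2 called 0 members and 6.73% of all genes. The nearest were Srf, with a change 0.32 larger on the log2 scale in the Myh6 model (95% interval -0.05 to 0.70, adjusted p 0.336), and Mef2d, 0.26 larger (-0.11 to 0.63, adjusted p 0.433). For Mef2c the difference was -0.34 (-0.84 to 0.15, adjusted p 0.442) and for Hand2 -0.17 (-1.36 to 1.01, adjusted p 0.901). The call of Hand2 in one model and of Mef2c in the other is thus not shown to be a difference between models. Without Myh6-tg replicate 1, Tbx5 alone passed (-0.81, adjusted p 0.0296).

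The control groups, which differ in age, Cre allele and oil injection together, gave no called member, with 0.0334% of 14990 genes called by edgeR. DESeq2 called 0 members and 2.23% of all genes. At an unadjusted p under 0.05 (edgeR) there were 2 members, Tbx5 (log2 -0.45, adjusted p 0.345) and Mef2c (-0.34, adjusted p 0.335). Both were lower in all Myh6-ctl than in all EIIa-ctl hearts, as 8.71% of genes were. These values share their control hearts with the comparisons above. The spread among hearts was wider in Myh6-ctl than in EIIa-ctl for 9 of 10 members, beside 71.6% of the 14990 genes, as with Nkx2-5 (coefficient of variation 34.9% against 6.95%) and Hand2 (52.6% against 15.5%), though for Mef2d by 5.54% against 5.53% only.

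Levels of different genes were compared on the FPKM scale, which accounts for transcript length. In EIIa-ctl hearts Nkx2-5 was highest at 32.0 FPKM ± 2.47 (SD, n = 3), and its range overlapped that of Gata4 at 27.8 ± 2.07. Mef2a (26.7) and Srf (24.7) came next, each overlapping its neighbour, then Mef2d (23.2) and Gata6 (18.1), each apart from the factor above. Mef2c (12.03) and Hand2 (11.6) overlapped each other, and Tbx20 (9.26) and Tbx5 (4.73) were apart at the bottom. Tbx5 was the lowest factor in all 4 groups. Hand2 moved from rank 8 in EIIa-ctl to rank 6 in EIIa-tg hearts at 26.8 FPKM ± 2.81, and Mef2c from rank 7 to rank 9 at 10.7 ± 1.07. In hearts labelled Myh6-tg the ranges of the first 7 factors, from Nkx2-5 (49.3 ± 31.6) to Gata6 (27.2 ± 2.76), each overlapped the next, and Mef2c (7.74 ± 1.90) overlapped Tbx5 (4.20 ± 2.80). FPKM depends on the share of counts taken by other genes, and the median gene was 0.16 (EIIa) and 0.34 (Myh6) higher in transgenic hearts on log2(FPKM + 1). Relative to that median, Hand2 was 1.00 higher in EIIa-tg and Mef2c -0.73 in Myh6-tg hearts.

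**Figure D4:**
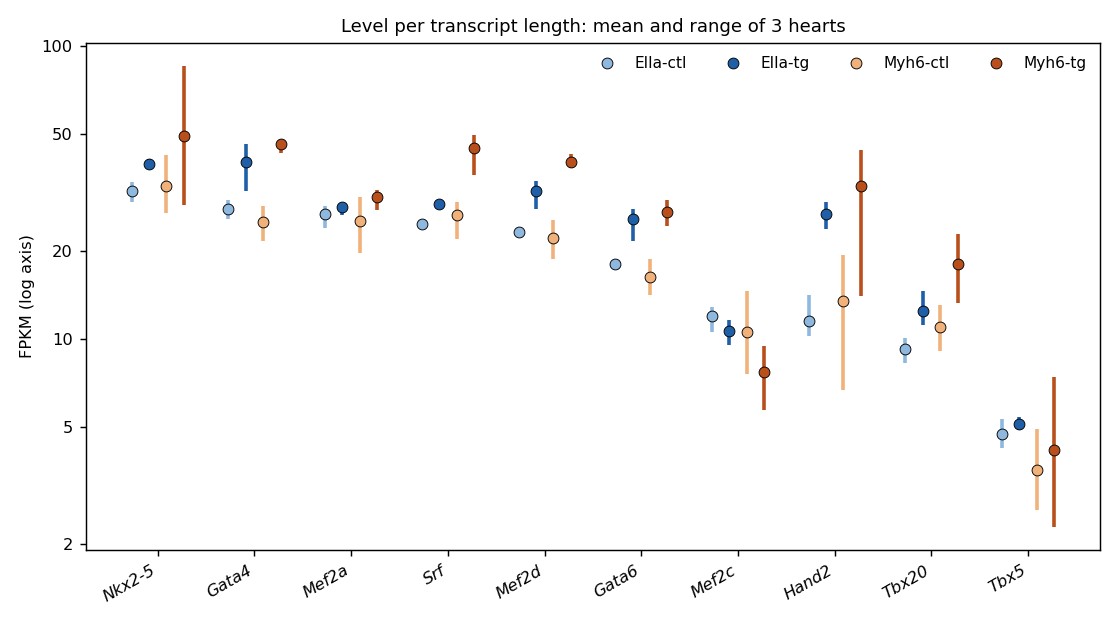
Mean FPKM (points, log axis) and range of 3 hearts (lines) for each factor, ordered by its mean in EIIa-ctl, in the 4 groups. Tbx5 is lowest throughout, and the widest ranges are those of Nkx2-5, Hand2 and Tbx5 in Myh6-tg.

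Of the cofactors and inhibitors of the core factors, 8 of 24 were called in the EIIa model (3 higher, 5 lower) and 3 of 24 in the Myh6 model (1 higher, 2 lower), beside the 17% and 18.3% of all genes. Abra, an actin-binding activator of SRF signalling, rose in EIIa-tg hearts from 27.5 CPM ± 7.09 to 149 ± 44.8 (log2 2.43, adjusted p 0.0135, n = 3), beside a Srf level that differed by 0.03. Hopx, a homeodomain protein that binds no DNA and restrains SRF, fell in both models, from 218 to 112 CPM (log2 -0.96, adjusted p 0.0214) and from 172 to 51.7 (-1.74, adjusted p 0.00785). Fhl2, a LIM cofactor, fell in EIIa-tg hearts (-1.198, adjusted p 0.0335). Ankrd1, a stretch-responsive cofactor, rose in both (1.43 and 1.63, adjusted p 0.0263 and 0.0200). Camta2, a partner of NKX2-5, fell in the hearts labelled Myh6-tg (-0.54, adjusted p 0.0485). These lists and the one of targets were fixed with results of these hearts known, and the medians of the cofactors were -0.02 and -0.01, beside 0.02 and 0.03 for all genes.

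Of other cardiac transcription factors, 3 of 27 tested were called in the EIIa model (1 higher, 2 lower) and 6 of 28 in the Myh6 model (1 higher, 5 lower), beside the 17% and 18.3% of all genes. Irx4, the ventricular Iroquois factor, fell in both, from 32.0 to 19.0 CPM (log2 -0.76, adjusted p 0.0168) and from 21.2 to 6.44 (-1.72, adjusted p 0.0444). Esrrg, an estrogen-related receptor, fell in EIIa-tg hearts (-0.68, adjusted p 0.0227), and Foxc1, a forkhead factor, rose (0.61, adjusted p 0.03003). In hearts labelled Myh6-tg, Ppargc1a, the coactivator of mitochondrial genes, fell from 102 to 19.5 CPM (-2.39, adjusted p 0.00588). Its partner Esrra (-1.16, adjusted p 0.0196) and Prdm16 (-1.06, adjusted p 0.0465) fell as well.

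Textbook targets of the core factors were called in both directions, 14 of 37 tested in the EIIa model (8 higher, 6 lower) and 14 of 38 in the Myh6 model (6 higher, 8 lower), beside the 17% and 18.3% of all genes. Their medians were -0.28 and 0.44, beside 0.02 and 0.03 for all genes, so median and majority of calls had opposite signs in each model. Cnn1, the SRF target calponin of smooth muscle, rose in EIIa-tg hearts from 2.62 CPM ± 0.24 to 37.0 ± 28.97 (log2 3.81, adjusted p 0.0147). In the hearts labelled Myh6-tg it was at 374 ± 311 CPM against 13.2 ± 10.5 (4.82, adjusted p 0.0299), where the groups overlapped. Myh7, the slow myosin heavy chain, Fos, an immediate early gene, and Nppa, the atrial natriuretic peptide, rose in EIIa-tg hearts (1.87, 1.61 and 1.46, adjusted p 0.0423, 0.0497 and 0.0326), Fos with overlap. In Myh6-tg hearts Myl4, the atrial light chain, rose (3.11, adjusted p 0.0131), while Ckm, the muscle creatine kinase, and Myh6, the fast myosin heavy chain, fell (-2.81 and -2.60, adjusted p 0.0134 and 0.0208).

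Cell type markers called higher or lower (edgeR, adjusted p under 0.05) are counted here, beside the 17% (EIIa) and 18.3% (Myh6) of all genes called. In the EIIa model 7 of 9 leukocyte markers tested were called higher, with summed levels of 313 to 489 CPM in EIIa-ctl and 704 to 899 in EIIa-tg hearts. Of 10 fibroblast markers 3 were called higher (sums 1659 to 2387 and 2999 to 4297). Of 10 endothelial markers 3 were called lower (sums 1447 to 1638 and 1210 to 1317) and of 10 cardiomyocyte markers 1 was called lower (41232 to 49959 and 22140 to 36627). Called or not, log2 fold changes were above 0 for 9 of 9 leukocyte and 10 of 10 fibroblast markers. They were above 0 for 1 of 10 endothelial and 1 of 10 cardiomyocyte markers. The EIIa-tg sums lay outside the control range for all of these lists, but the most abundant genes weigh most in a sum. Mean Myh6 went from 12395 to 4885 CPM and Lyz2 from 264 to 566, while Tnnt2 and Actn2 differed by log2 0.09 and -0.09. Of the 10 cardiomyocyte markers, 7 were lower with no overlap between groups. Hand2 was higher in the same hearts, and its relation to these sums was not tested. Among Myh6 hearts 4 of 10 cardiomyocyte markers were called lower (32490 to 43203 in Myh6-ctl and 11740 to 34935 in Myh6-tg). There 4 of 10 fibroblast markers were called higher (2215 to 2842 and 2789 to 6536) and 3 of 7 ventricular markers lower (6725 to 10111 and 1526 to 6224). Log2 fold changes above 0, called or not, were found for 4 of 10 cardiomyocyte, 7 of 10 fibroblast and 2 of 7 ventricular markers. By edgeR 0 leukocyte and 0 endothelial markers were called there, with 2 and 4 of 10 at an unadjusted p under 0.05, and their sums were 626 to 1623 against 611 to 1077 CPM and 984 to 1094 against 1053 to 1981 CPM. Calls of smooth muscle and pericyte markers were 1 higher and 1 lower of 10 in the EIIa and 1 higher and 2 lower in the Myh6 model. Those of ventricular markers were 1 higher and 2 lower of 7 in the EIIa model.

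Calls of atrial markers were 2 higher of 7 tested in the EIIa and 2 higher and 2 lower of 8 in the Myh6 model, beside the same shares of all genes. Their sums were 256 to 479 and 640 to 911 CPM in EIIa-ctl and EIIa-tg, and 265 to 1954 and 4349 to 6613 in Myh6-ctl and Myh6-tg hearts, mostly Nppa. Of the listed markers, Bmp10 was at 0 in 11 of 12 hearts, Sln and Myl7 were at 0 in 7, and none of these exceeded 4.26 CPM. The 2 called higher in the Myh6 model were Myl4 (mean 1.92 CPM in Myh6-ctl and 16.5 in Myh6-tg) and Dkk3 (10.2 and 96.1). Those called lower were Kcnj3 (39.0 and 3.92) and Kcna5 (34.2 and 16.8). Among leukocyte markers Cd3e was at 0 in 3 hearts and S100a8 in 2. Epicardial markers summed to at most 35.7 CPM in any heart, and 0 were called by edgeR in either model (unadjusted p under 0.05 for 0 of 6 and 2 of 7). The part of these cells in the values of Hand2 and Mef2c was not tested.

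For the called members, the genes with the most similar log2 CPM across the 12 hearts, out of 10195, were Otud1 (Pearson r 0.970) and Apex1 (0.967) for Hand2, and Antxr2 (0.987) and Tarsl2 (0.984) for Mef2c. The points share the 4 groups, so these describe a pattern across hearts and carry no test. Among members, deviations from the group means went together for Tbx5 and Mef2c (r 0.86) and for Gata6 and Nkx2-5 (0.80), and opposite for Mef2a and Hand2 (-0.80), each over 12 hearts. Myh6-tg replicate 1 has the largest deviation of all hearts for Nkx2-5, Tbx5, Mef2c and Hand2.

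**Figure D5:**
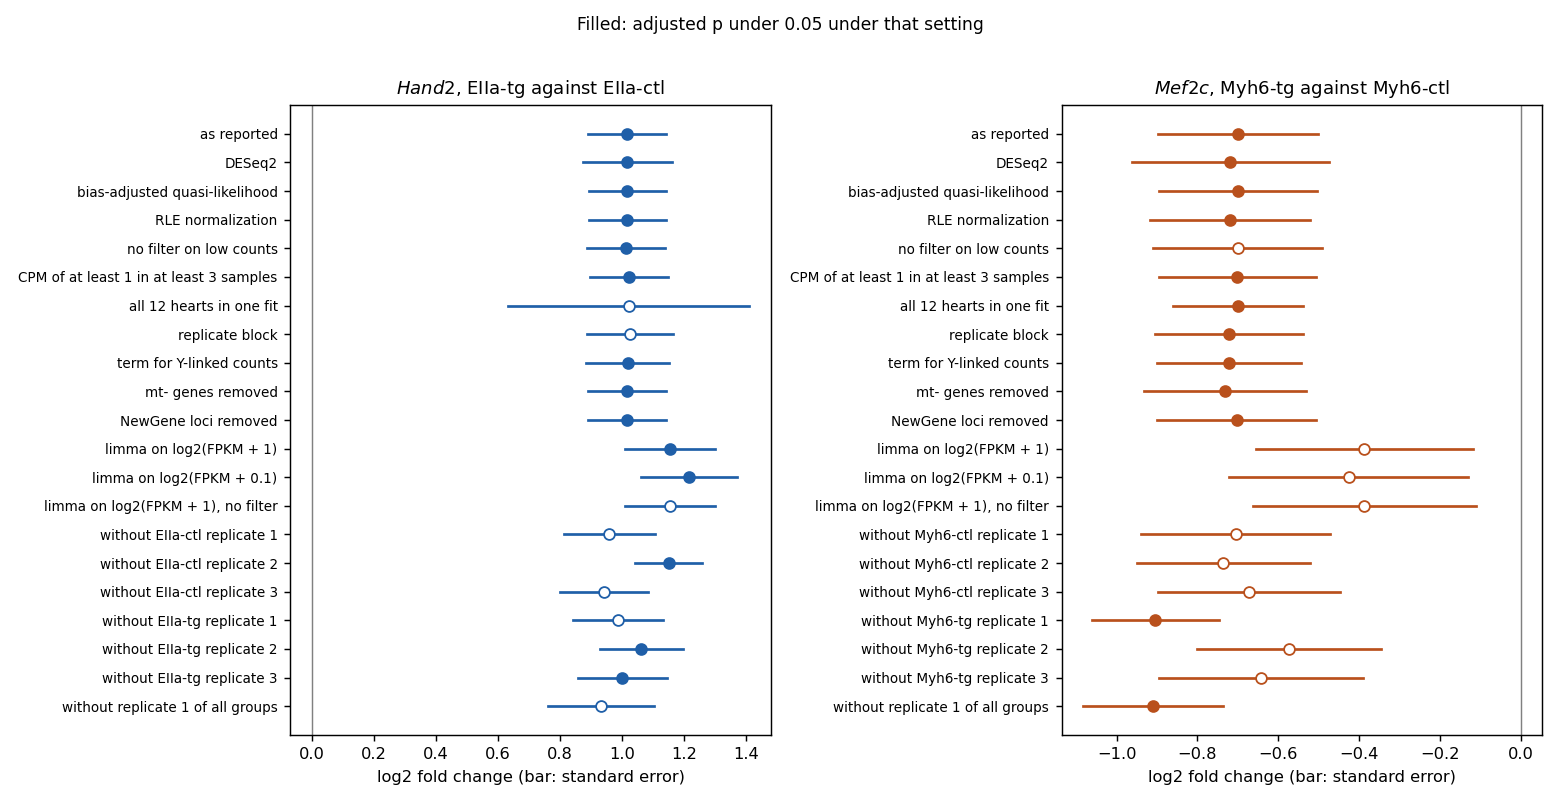
Log2 fold change of Hand2 in the EIIa model and of Mef2c in the Myh6 model (x axis, bar for the standard error) under each way of processing (rows), filled where the adjusted p was under 0.05. The direction is the same in every row, and Hand2 is filled in 13 and Mef2c in 11 of 20 alternatives besides the values as reported (top row).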

How the data were processed

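RNA of 12 mouse hearts was measured, 3 in each of 4 groups, taken from titles and treatment labels. Per the study's methods, paired-end reads were mapped to GRCm38 with HISAT2. The submitters' processing notes name HISAT2 2.0.4, StringTie 2.2.1, DESeq2 and the builds mm10 and GRCm39, with no annotation release. The authors deposited whole-number counts per gene and FPKM values (fragments scaled to transcript length and mapped library size), both used here. Of 25171 loci, 3135 are named NewGene by the authors, and 22022 were matched in GENCODE M21, which gave positions. Totals ranged from 38343106 to 50969834 counts, where 3 counts are 0.0589 to 0.0782 CPM, for counting error only.

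Genes were kept by filterByExpr, scaled by TMM and tested with the quasi-likelihood test of edgeR 4.0.16 in R 4.3.3, in the 6 hearts of a comparison and, for the difference between models, in all 12. P-values were adjusted over all genes tested by the Benjamini-Hochberg method, and a gene was called at an adjusted p under 0.05. Normalized CPM used one TMM scaling of all 12 hearts. A stricter call (adjusted p under 0.01, at least 2-fold) took the limits of the study. The study used them with DESeq2, and here they were applied to the edgeR fit. The fits were tested on simulated data. Labels call the hearts biological replicates, and p-values measure the spread between these hearts.

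Members and lists were chosen with earlier results of these data known. Named genes were the 10 members, the 4 called genes with the largest fold change from each further list in each model (mean CPM of at least 1), the 2 genes nearest each called member over 12 hearts, and Esr1, Sqstm1 and Y-linked genes. Alternatives were DESeq2 1.42.0, bias-adjusted quasi-likelihood, RLE scaling, 2 other filters, all 12 hearts in one fit, a replicate block, a term for Y-linked counts, removal of mt- genes or NewGene loci, limma 3.58.1 on FPKM after log2 (pseudocount 1 or 0.1, with or without a filter at 0.5), and leaving out each heart. Leaving out replicate 1 of all groups was chosen after seeing the data. Whether replicate numbers pair hearts was checked from deviations from group means over 15929 genes: same-numbered Myh6 hearts correlated at 0.285, 0.184 and 0.173. These numbers were taken as pairs from the data, since no label says what they share. The replicate 1 hearts, which gave 0.285, were also the only ones with Y-linked RNA, so pairing and that feature cannot be told apart for them. Figures were drawn with matplotlib 3.10.9. Protein sequences and the transgene were not analysed here.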

Additional observations from a re-analysis of the deposited data

How the results depend on the processing

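Directions of both called members held under all 20 alternatives, with log2 fold changes of 0.93 to 1.22 for Hand2 in EIIa-tg (adjusted p 6.14e-10 to 0.189) and -0.91 to -0.39 for Mef2c in Myh6-tg hearts (0.00642 to 0.379), and the calls held in 13 and 11. With 3 hearts a group, a log2 change inside an interval that holds 0 cannot be told from 0. Where a call was lost the cause was not tested.

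In the EIIa model the count of called members, 1, became 0 at the stricter call, where 0 genes passed. That call was made on edgeR, whose smallest adjusted p there was 0.0135, so no gene could pass. With DESeq2, the tool of the study, Hand2 (log2 1.02, adjusted p 6.14e-10) was within both limits. Limma on log2(FPKM + 1) without a filter gave 0 members (1 gene called). The count was also 0 with all 12 hearts in one fit (227 of all genes called) and without replicate 1 of all groups (0 genes). It became 2 with DESeq2 (18.2% of all genes called, against 17% as reported) and 4 with limma at pseudocounts of 1 and 0.1 (23.9% and 23.6%). Leaving out 1 heart gave 0 to 5 (5 without EIIa-tg replicate 2, where 26.6% of all genes were called), while all genes called ranged from 0 to 4079. Same-numbered EIIa hearts correlated at 0.0602, -0.0704 and -0.04998. No label says what they share beyond the number, though both replicate 1 hearts had Y-linked RNA. The replicate block gave 0 members (Hand2 at 1.03, adjusted p 0.0631) and 1 of all genes in place of 2527, and not every heart correlated best with its own number. In the Myh6 model the count, 1, became 0 at the stricter call (3.97% of all genes) and without a filter on low counts (13.4%). It became 2 with DESeq2, bias-adjusted quasi-likelihood or the replicate block (19.4%, 20.7% and 20.9% of all genes called, against 18.3% as reported). With all 12 hearts or the Y-linked term it was 3 (31.7% and 23.4%). Each limma fit gave 4 (32.7% and 32.4% at pseudocounts of 1 and 0.1, 16.9% without a filter). Leaving out 1 heart gave 0 to 3 (3 without Myh6-tg replicate 1, where 26.7% of all genes were called, or 4269 genes). The other hearts gave 0, where 5.01% to 11% of all genes were called. In the difference between models the count of 0 became 1 without Myh6-tg replicate 1 (range 0 to 1), where 10.6% of all genes were called, against 3.92% as reported. Between controls it was 0 throughout, with 0.0052% to 2.23% of all genes called. The replicate block changed no other call of a member.

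Values that turned sign were not called as reported. On FPKM with pseudocounts of 1 and 0.1, Tbx5 went to 0.11 and 0.13 and Mef2a to 0.078 and 0.081 in the EIIa model. In the Myh6 model Tbx5 went to 0.087 and 0.085 and Mef2a to 0.28 and 0.29 (without a filter, as with the pseudocount of 1), while the median of all genes was 0.16 and 0.20 (EIIa) and 0.34 and 0.43 (Myh6). In the Myh6 model Nkx2-5 went to -0.045 with the Y-linked term and -0.64 without replicate 1 of all groups. In the difference, Tbx5 (0.002 as reported) went to -0.0017 with bias adjustment, -0.0072 without a filter, -0.00088 with the CPM filter, -0.11 with the replicate block, -0.11 with the Y-linked term, -0.026 without mt- genes, -0.0051 without NewGene loci, -0.019 and -0.040 on FPKM and -0.76 without replicate 1 of all groups. Nkx2-5 went to -0.036 with the Y-linked term and -0.68 without replicate 1 of all groups, Gata6 to -0.010 without mt- genes and -0.12 without replicate 1 of all groups, Mef2a to -0.018 in the latter and Hand2 to 0.033 and 0.032 on FPKM.

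Leaving out 1 heart turned further values. In the EIIa model Srf ranged from -0.0039 to 0.091 and Tbx5 from -0.092 to 0.020. In the Myh6 model Nkx2-5 ranged from -0.59 to 0.51, Tbx5 from -0.85 to 0.26 and Mef2a from -0.17 to 0.0022. In the difference Gata4 ranged from -0.070 to 0.24, Gata6 from -0.14 to 0.21, Nkx2-5 from -0.71 to 0.38, Tbx5 from -0.81 to 0.30, Tbx20 from -0.070 to 0.18, Mef2a from -0.059 to 0.14 and Hand2 from -0.49 to 0.29. Between controls Gata4 ranged from -0.26 to 0.047, Nkx2-5 from -0.23 to 0.28 and Hand2 from -0.23 to 0.55.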
